A study of Mus musculus with 9 samples.

Results

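The skin RNA of 5 control and 4 *Supt6*-KO mice was examined for 9 genes that build the anchorage of the epidermis to the dermis, namely *Col17a1*, *Itga6*, *Itgb4*, *Itga3*, *Dst*, *Plec*, *Lama3*, *Lamb3* and *Col7a1*. All 9 were found by symbol among the 17943 genes of the count table, and all 9 were among the 16426 genes tested. *Supt6*-KO mice carried K14-CreERT and floxed *Supt6* on both alleles (K14-CreERT; *Supt6* fl/fl) and were given tamoxifen in the first telogen by the description of the study, so that recombination was driven by the keratin 14 promoter, which is active in basal keratinocytes. The labels call the controls WT, while the methods of the study describe *Supt6* fl/fl controls that were given corn oil. Every mouse of both groups therefore had floxed *Supt6* alleles by that description, and the deletion, the Cre transgene and tamoxifen cannot be told apart. Skin was taken 10 days after dosing had ended. The labels call the *Supt6*-KO genotype a knockdown, and they name ear skin where the text of the study names lesional dorsal skin, and the age of these mice is not given in the sources used here.

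Total counts were even, with 29627341 to 30967107 estimated counts per mouse. The labels do not name the sex of the mice. The summed level of 4 Y-linked genes was 0.08023 CPM in control 1 and 0.05536 CPM in control 3, against 151.9 to 201.1 CPM in the other 3 controls and 229.1 to 280.1 CPM in the 4 *Supt6*-KO mice. Values are CPM (read counts relative to the library size scaled by TMM factors) unless another scale is named. The TMM factors differed by group, at 1.198 to 1.315 in the controls and 0.6738 to 0.9098 in the *Supt6*-KO mice. A gene was called higher or lower in edgeR's quasi-likelihood test where it changed at least 2-fold with a Benjamini-Hochberg adjusted p, taken over the 16426 genes, of less than 0.05. Nothing in the labels says whether the mice share litters or cages, so the p-values measure the spread between these mice.

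Hemidesmosomes are rivets on the basal face of basal keratinocytes. On the inner side, plectin (*Plec*) and the epithelial form of dystonin (*Dst*) tie keratin filaments to the cytoplasmic tail of integrin β4 (*Itgb4*), whose partner is integrin α6 (*Itga6*), and to the transmembrane collagen XVII (*Col17a1*). On the outer side, a laminin with the α3 (*Lama3*) and β3 (*Lamb3*) chains binds these receptors, and anchoring fibrils of collagen VII (*Col7a1*) fasten the basement membrane to the dermis, while integrin α3 (*Itga3*) pairs with β1 (*Itgb1*) outside the hemidesmosome. Inherited loss of any of these parts is known to cause skin fragility or blistering.

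The start regions of a few members are shown because the counts are summed over all transcripts of a gene, and *Dst* has starts far apart that yield different products. The sequences are from RefSeq on GRCm38.p6 and run from 250 bases before to 50 bases after each start. RefSeq start regions were matched for 5 of the 9 members. Capitals mark the TATA box motif TATAAA, which was searched on both strands together with the AP-1 motif TGANTCA. The first sequence is the *Col17a1* start (chr19:47691993-47692292, minus strand), the second the upstream *Dst* start of the long forms (chr1:34011345-34011644, plus strand) and the third the internal *Dst* start of the epithelial form (chr1:34160010-34160309, plus strand).
Col17a1: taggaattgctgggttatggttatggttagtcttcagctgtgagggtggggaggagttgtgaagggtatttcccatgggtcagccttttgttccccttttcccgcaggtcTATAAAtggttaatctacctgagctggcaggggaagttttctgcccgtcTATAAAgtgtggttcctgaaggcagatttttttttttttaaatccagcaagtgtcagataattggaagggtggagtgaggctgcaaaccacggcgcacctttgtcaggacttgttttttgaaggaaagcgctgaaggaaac
Dst, upstream start: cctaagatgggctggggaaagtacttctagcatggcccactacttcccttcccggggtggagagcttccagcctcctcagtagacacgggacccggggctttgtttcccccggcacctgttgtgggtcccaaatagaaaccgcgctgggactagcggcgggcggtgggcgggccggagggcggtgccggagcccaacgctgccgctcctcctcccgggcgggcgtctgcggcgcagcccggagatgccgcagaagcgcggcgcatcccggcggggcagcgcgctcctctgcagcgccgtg
Dst, internal start: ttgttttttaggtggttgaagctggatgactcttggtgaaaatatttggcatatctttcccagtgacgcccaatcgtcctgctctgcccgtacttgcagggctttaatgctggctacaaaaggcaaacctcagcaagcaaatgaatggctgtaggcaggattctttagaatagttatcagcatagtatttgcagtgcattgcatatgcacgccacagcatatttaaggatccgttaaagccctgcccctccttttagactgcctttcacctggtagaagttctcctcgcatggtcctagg
The *Col17a1* region held 2 matches to TATAAA, a motif found in 13.6% of all 32851 RefSeq start regions of this length. The upstream *Dst* region was 70.3% G and C and the internal region 46% G and C, and neither held either motif. The AP-1 motif, present in 7.81% of all start regions, was found once among the members' regions, at the second of the *Itga3* starts (chr11:95069149-95069448, minus strand). A match is a description of letters only.

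*Supt6*, the targeted gene, was measured first. Its level was 74.51, 56.62, 63.59, 91.14 and 96.7 CPM in controls 1 to 5 and 28.58, 24.13, 21.86 and 28.42 CPM in *Supt6*-KO mice 1 to 4. The groups did not overlap, and the mean fell to 33.7% of control (log2 fold change -1.57, SE 0.18, adjusted p = 1.3e-05). The value was -2.26 with library totals alone in place of TMM factors, and -0.76 and -0.71, short of 2-fold, after correction for the length of the longest transcript and for the length implied by the deposited counts and TPM. The floxed exons are a part of the transcript and the counts cover the whole gene, so that transcripts with and without these exons cannot be told apart.

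Without a length correction, transcripts of the hemidesmosome and its anchors were lower in *Supt6*-KO skin across the inner plaque, the receptors and the extracellular anchor. Of the 9 members, 8 were called lower and 0 higher, where 24.9% of all genes tested were called lower and 20.9% higher. *Itga6* passed the adjusted p but not the 2-fold limit, so that all 9 passed the adjusted p alone in the lower direction, as did 36.8% of all genes tested. All 9 members were lower in every *Supt6*-KO mouse than in every control, a pattern found in 31.8% of all genes tested, while the opposite pattern was found in 28.9% of them and in 0 members. The median log2 fold change of the members was -2.17, beside -0.07 over all genes tested. Long transcripts were lower in general, with 33.7 to 53.9% of genes called lower in the length classes of the members. With the transcript, genomic and implied length corrections 6, 7 and 5 members were called lower, beside 20.3%, 21.4% and 20.2% of all genes fitted. Summed over the 9 genes, the level was 2321, 1698, 2095, 2873 and 2867 CPM in controls 1 to 5 and 619, 519.6, 493.6 and 586 CPM in the *Supt6*-KO mice, or 23.4% of the control mean. In bulk skin, fewer basal keratinocytes and less RNA per basal keratinocyte cannot be told apart.

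**Figure D1:**
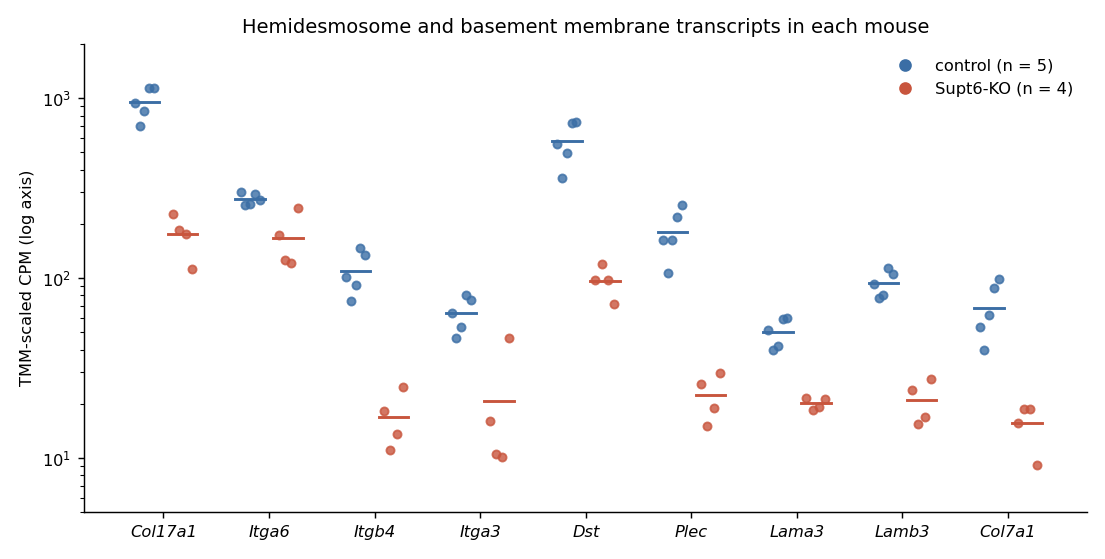
Level of each of the 9 members in TMM-scaled CPM on a log axis, with 1 point per mouse and a line at the group mean for 5 controls (blue) and 4 Supt6-KO mice (red). The groups do not overlap for any member, and the narrowest gap is that of Itga3, where Supt6-KO mouse 4 at 46.4 CPM lies next to the lowest control at 46.5 CPM.

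Among the inner plaque genes, *Plec* (chr15:76170974-76231378, minus strand) encodes plectin, the linker between keratin filaments and integrin β4. It was measured at 163.4, 106.4, 162.4, 217.9 and 256.1 CPM in controls 1 to 5 and at 25.74, 15.11, 18.84 and 29.49 CPM in *Supt6*-KO mice 1 to 4. The highest *Supt6*-KO mouse was well under the lowest control. Without a length correction *Plec* had the lowest remaining level of the members, 12.3% of control (log2 fold change -3.02, SE 0.29, adjusted p = 4e-06). With the transcript length correction it was at -1.64 and with the implied length at -1.5, and *Itgb4* (-1.92 and -1.86) then fell furthest. *Dst* (chr1:33907888-34308662, plus strand) encodes dystonin, whose epithelial form is a plakin of the same plaque. Its level was 555.3, 359, 498.4, 729 and 732.3 CPM in the controls and 97.61, 120.1, 98.02 and 71.27 CPM in the *Supt6*-KO mice. The groups were far apart, with a mean at 16.8% of control (log2 fold change -2.57, SE 0.24, adjusted p = 4.1e-06). The value was -0.98, short of 2-fold, with the transcript length correction and -1.39 with the implied length.

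The length of *Dst* RNA behind these counts can be read from the deposited values, since the ratio of a gene's estimated count to its TPM gives the mean length of the transcripts counted. This implied length was 9833 to 10007 bases in the 5 controls and 10033 bases in *Supt6*-KO mouse 4, the only *Supt6*-KO mouse whose TPM were used here. In GENCODE vM21 the forms from the internal start at chr1:34160330 measure 8788, 8961 and 16340 bases, and the long forms from the upstream starts measure 17212 to 23279 bases. The implied lengths lie nearest to those of the shorter forms from the internal start. The measure does not match the GENCODE lengths for every member. For *Itga6* it was 6268 to 6286 bases in controls, above the longest protein-coding form in GENCODE vM21, of 4310 bases. The GENCODE protein-coding forms of *Itga6* end at chr2:71856771 or before, while the gene reaches chr2:71858427 in RefSeq. The GENCODE length may thus be too short. With a single *Supt6*-KO mouse no test of isoform use was made.

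The receptors differed among themselves. *Col17a1* (chr19:47646341-47692042, minus strand), the most abundant member in controls, encodes the transmembrane collagen XVII. It was measured at 941.8, 700.2, 847.9, 1145 and 1134 CPM in the controls and at 227.6, 183.7, 176.6 and 111.6 CPM in the *Supt6*-KO mice. Every *Supt6*-KO mouse kept less than the lowest control by a wide margin, and the mean was 18.3% of control (log2 fold change -2.45, SE 0.24, adjusted p = 4.5e-06). *Itgb4* (chr11:115974725-116008412, plus strand) encodes the integrin chain that binds plectin. It stood at 101, 74.14, 91.3, 146 and 134.6 CPM in the controls and at 18.18, 11.08, 13.63 and 24.86 CPM in the *Supt6*-KO mice. The mean fell to 15.5% of control (log2 fold change -2.69, SE 0.28, adjusted p = 6.7e-06).

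*Itga6* (chr2:71786886-71858427, plus strand), the obligate partner chain of β4 in the hemidesmosome, moved least of the members where no length correction was made. It was measured at 298.9, 255.2, 256.7, 293.5 and 270.3 CPM in controls and at 173.2, 126.4, 121.4 and 244.3 CPM in the *Supt6*-KO mice. *Supt6*-KO mouse 4 was just below the lowest control, and the mean was 60.5% of control (log2 fold change -0.72, SE 0.20, adjusted p = 0.0066). This value moved to -0.30 (adjusted p = 0.15) after correction for the length of the longest transcript, to -0.06 (adjusted p = 0.77) after correction for genomic span and to 0.07 (adjusted p = 0.72) after correction for the implied length. In the other direction it was -1.37 (adjusted p = 0.0007) with library totals and -0.98 (adjusted p = 7.1e-05) without *Supt6*-KO mouse 4.

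*Itga3* (chr11:95044475-95076844, minus strand) encodes the laminin-binding chain that pairs with β1. Its level was 63.54, 46.49, 53.62, 80.51 and 75.18 CPM in the controls and 15.92, 10.55, 10.15 and 46.45 CPM in the *Supt6*-KO mice. *Supt6*-KO mice 1, 2 and 3 lay far below the controls and mouse 4 reached the edge of their range. The mean was 32.5% of control (log2 fold change -1.62, SE 0.42, adjusted p = 0.0048), and leaving out *Supt6*-KO mouse 4 gave a log2 fold change of -2.39 (adjusted p = 4.4e-06). Tested against a 2-fold change, *Itga3* did not pass with all 9 mice (adjusted p = 0.077).

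The extracellular anchor was lower as well. *Lamb3* (chr1:193294353-193343878, plus strand), the laminin β3 chain, was at 92.93, 77.37, 80.61, 113.9 and 105.7 CPM in the controls and at 23.73, 15.4, 16.88 and 27.59 CPM in the *Supt6*-KO mice. The groups were far apart and the mean fell to 22.2% of control (log2 fold change -2.17, SE 0.20, adjusted p = 3.5e-06). *Lama3* (chr18:12333417-12583013, plus strand), the laminin α3 chain, was at 51.21, 39.59, 41.74, 59.25 and 60.04 CPM in the controls and at 21.48, 18.52, 19.26 and 21.19 CPM in the *Supt6*-KO mice. The *Supt6*-KO values were tightly grouped around 39.9% of control (log2 fold change -1.32, SE 0.15, adjusted p = 1.4e-05). After correction for the longest transcript this became -0.21 (adjusted p = 0.074), although the implied length of *Lama3* RNA was 5998 to 6198 bases in controls and 5854 bases in *Supt6*-KO mouse 4, nearer to the annotated form of 5551 bases than to that of 10548 bases. With the implied length the value was -0.52 (adjusted p = 0.00061).

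*Col7a1* (chr9:108953586-108984875, plus strand), which forms the anchoring fibrils, was at 53.17, 39.64, 62.12, 87.46 and 99.27 CPM in the controls and at 15.54, 18.71, 18.75 and 9.16 CPM in the *Supt6*-KO mice. The controls spread by more than 2-fold, and the *Supt6*-KO mice were all lower, at 22.7% of control on average (log2 fold change -2.14, SE 0.30, adjusted p = 6.1e-05). The value was -1.06 with the transcript length correction and -0.95, short of 2-fold, with the implied length. Collagen VII is made by keratinocytes and by dermal fibroblasts, whose shares in this level cannot be told apart.

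Mice of a group also differed from each other in a shared manner. Control 2 had the lowest level of all 9 members among the controls, and control 4 or control 5 had the highest level of 8 of them. Among the *Supt6*-KO mice, mouse 4 was the highest for 5 members, *Itga3*, *Itga6*, *Itgb4*, *Lamb3* and *Plec*, and the lowest for 3, *Col17a1*, *Dst* and *Col7a1*. Against the mean of the other 3 *Supt6*-KO mice, mouse 4 had 3.8 times the *Itga3*, 1.74 times the *Itga6* and 1.74 times the *Itgb4* level. In the same comparison it had 0.57 times the *Col17a1*, 0.677 times the *Dst* and 0.518 times the *Col7a1* level. *Krt14*, at 2.44 times, and *Krt5*, at 1.69 times, were also highest in mouse 4. This comparison was chosen after the values were seen, and with 1 mouse it has no test.

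Levels of different genes were compared per length. On the scale of CPM per kilobase of the longest transcript, the order of the level in controls was *Col17a1* at 171 ± 34 (SD, n = 5), *Itga6* at 63.8 ± 4.73, *Dst* at 24.7 ± 6.84, *Lamb3* at 19.3 ± 3.23, *Itgb4* at 17.6 ± 4.84, *Itga3* at 13.1 ± 2.93, *Plec* at 11.7 ± 3.72, *Col7a1* at 7.39 ± 2.66 and *Lama3* at 4.78 ± 0.904. The ranges over the 5 controls were apart between *Col17a1* and *Itga6* and between *Itga6* and *Dst*, and overlapped for every later pair of neighbours. On the scale of the TPM that the authors deposited, *Dst* at 104 ± 39.8 (SD, n = 5) stood before *Itga6* at 76.9 ± 12.6 with overlapping ranges, and *Lama3* at 14.7 ± 4.31 before *Col7a1* at 12.5 ± 5.94. In *Supt6*-KO skin the order per kilobase was led by *Itga6* at 38.6 ± 13.2 (SD, n = 4) and *Col17a1* at 31.3 ± 8.56, whose ranges overlapped, and *Plec* was last at 1.44 ± 0.421. *Itga6* was above *Col17a1* in 1 of the 4 mice, mouse 4, and over the other 3 mice the means were 32.6 for *Itga6* and 35.1 for *Col17a1*. Before division by length the *Supt6*-KO means were 166 CPM for *Itga6* and 175 CPM for *Col17a1*. The length used for *Itga6* was 4310 bases, while its implied length was 6268 to 6286 bases in controls. The order of these 2 genes in *Supt6*-KO skin thus depends on the length used.

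Partner chains were then compared within each mouse as log2 ratios of their counts, a measure that does not depend on the scaling between mice. The ratios were not corrected for transcript length, and the part of a length effect in them was not tested. Of 8 ratios tested, 6 are given here, by a two-sided exact permutation test over every split of the mice into 5 and 4, in which the smallest possible p is 0.0159. Integrin α6 and β4 chains form 1 receptor, and the log2 ratio of *Itga6* to *Itgb4* was 1.56, 1.78, 1.49, 1.01 and 1.01 in the controls and 3.25, 3.51, 3.15 and 3.3 in the *Supt6*-KO mice. The ratio was thus 3.82 times higher in *Supt6*-KO skin, with the groups apart (exact p = 0.0159, adjusted over the 8 ratios p = 0.0317). The log2 ratio of *Itga3* to *Itga6* was -2.13 ± 0.27 (SD, n = 5) in controls and -3.25 ± 0.57 (SD, n = 4) in *Supt6*-KO mice and the groups overlapped through mouse 4 (exact permutation p = 0.0317, adjusted p = 0.0508). Without control 2 this difference was -1.20 (adjusted exact permutation p = 0.0457) and without *Supt6*-KO mouse 4 it was -1.40 (adjusted exact permutation p = 0.0408).

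The laminin α3 and β3 chains, which assemble into the same laminin, shifted against each other. The log2 ratio of *Lama3* to *Lamb3* was -0.86, -0.97, -0.95, -0.94 and -0.82 in the controls and -0.14, 0.27, 0.19 and -0.38 in the *Supt6*-KO mice. The groups were apart and the ratio was 1.85 times higher in *Supt6*-KO skin (exact permutation p = 0.0159, adjusted p = 0.0317). With control 1, 3, 4 or 5 left out the adjusted exact permutation p of this ratio and of *Itga6* to *Itgb4* was 0.0571, and with *Supt6*-KO mouse 1, 2 or 3 left out it was 0.0714, while the groups stayed apart.

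The other 3 ratios did not pass the test with all mice. The log2 difference was 0.24 for *Col17a1* to *Itgb4* (exact permutation p = 0.571), 0.46 for *Dst* to *Plec* (exact permutation p = 0.238) and 0.08 for *Col7a1* to *Lamb3* (exact permutation p = 0.841). *Supt6*-KO mouse 4 was the lowest in all 3, and without it *Col17a1* to *Itgb4* was 0.65 and *Dst* to *Plec* 0.75, both with an adjusted exact permutation p of 0.0408.

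**Figure D2:**
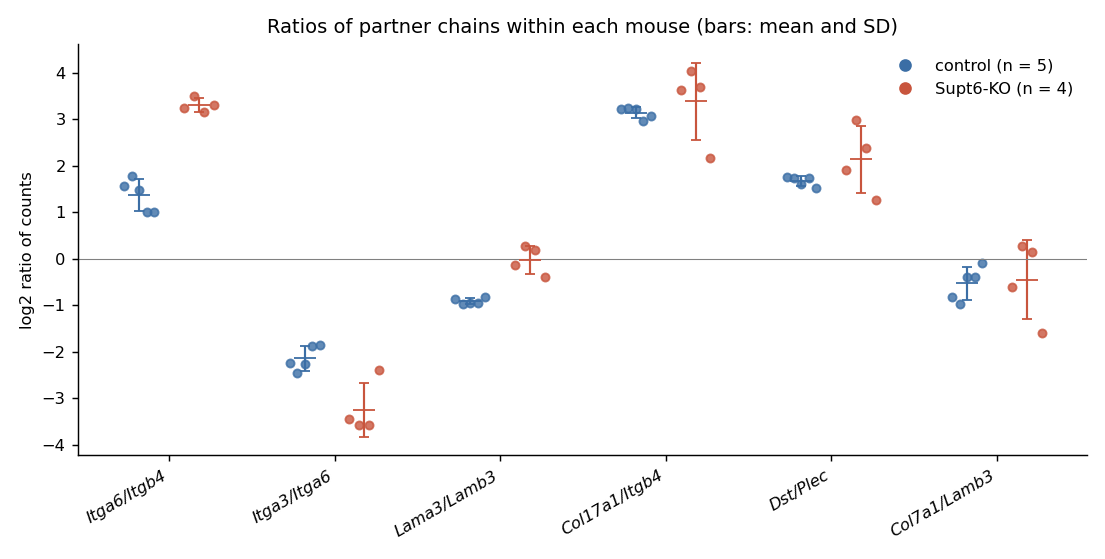
Log2 ratio of the counts of partner genes within each mouse for 5 controls (blue) and 4 Supt6-KO mice (red), with the group mean and SD. The groups are apart for Itga6/Itgb4 and Lama3/Lamb3 and overlap for the other 4, and the Supt6-KO point that stands away from its group in Itga3/Itga6 is mouse 4.

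The other hemidesmosome genes gave a mixed picture. Of the 5 partners listed, 1 was called lower and 0 higher, beside 24.9% and 20.9% of all genes tested. Their median log2 fold change was -0.34. *Cd151*, a tetraspanin that associates with laminin-binding integrins, was at 81.9 ± 6.11 CPM in controls (SD, n = 5) and 92.4 ± 9.94 CPM in *Supt6*-KO mice (SD, n = 4; log2 fold change 0.17, SE 0.11, adjusted p = 0.18) and turned to -0.50 (adjusted p = 0.013) when only library totals were used.

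*Lad1*, which encodes the anchoring filament protein ladinin, was the partner called lower (46.9% of control, log2 fold change -1.09, adjusted p = 0.0033), a count that was 0 without *Supt6*-KO mouse 2 or 3 and 2 without mouse 4. Over all alternatives the count of partners called lower ranged from 0 to 3. *Erbin*, whose product binds integrin β4, passed the adjusted p without reaching 2-fold (log2 fold change -0.34, adjusted p = 0.026). It was at -1.06 (adjusted p = 1.9e-05) with library totals and turned to 0.44 after correction for transcript length. The basal keratins *Krt5* and *Krt14* pair into the filaments to which the plaque is tied. *Krt5* fell to 54.9% of control (log2 fold change -0.86, SE 0.23, adjusted p = 0.0048), and passed 2-fold with library totals (-1.51), with the transcript (-1.04) and genomic (-1.19) length corrections and without *Supt6*-KO mouse 4 (-1.10). *Krt14* was at 158% of control on average (log2 fold change 0.66, SE 0.30, adjusted p = 0.063), with mouse 4 at 9613 CPM and the others at 3114 to 4730 CPM. The value for *Krt14* was 0.21 (adjusted p = 0.27) without mouse 4, 0.84 (adjusted p = 0.021) without mouse 2, 0.05 (adjusted p = 0.91) with library totals and 0.72 (adjusted p = 0.015) in DESeq2, and it was 0.24 to 0.29 with the 3 length corrections.

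Among the 5 basal keratinocyte markers, 2 were called lower and 0 higher, beside 24.9% and 20.9% of all genes tested. Without *Supt6*-KO mouse 4, 4 were called lower. *Krt15* fell to 15.9% of control (log2 fold change -2.65, adjusted p = 2.2e-06) and *Trp63*, the gene of the epidermal master regulator p63, to 43.1% (log2 fold change -1.21, adjusted p = 1.5e-05). The summed level of the basal markers, of which *Krt14* was the most abundant, was 10330 to 11770 CPM in the controls and 5494 to 13760 CPM in the *Supt6*-KO mice, and none of the 5 was at 0. Of 6 suprabasal markers, 3 were called higher and 0 lower. *Krt1* rose 12.5-fold in mean level (log2 fold change 3.65, adjusted p = 5.3e-07) and *Dsc1* rose with it (log2 fold change 2.10, adjusted p = 2.9e-06). *Krtdap* rose (log2 fold change 1.82, adjusted p = 0.00011) but was at -0.06 after correction for transcript length. The other 3 were not called, namely *Krt10*, the most abundant (log2 fold change 0.19, adjusted p = 0.56), *Dsg1a* (0.11, adjusted p = 0.68) and *Sbsn*, which was lower in every *Supt6*-KO mouse than in every control (-0.25, adjusted p = 0.18). The summed suprabasal level was 20420 to 22250 CPM in the controls, 41500 to 44110 CPM in *Supt6*-KO mice 1 to 3 and 21540 CPM in mouse 4, inside the control range. The part of a change in the mix of basal and suprabasal cells in the values of the members was not tested.

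Most of the other basement membrane genes listed were called lower, where 24.9% of all genes tested were. Exceptions were found in each list but that of the type IV collagens. All 6 type IV collagen chains, the network-forming collagens of basement membranes, were called lower, with a median log2 fold change of -2.23. *Col4a6* fell furthest, with 21.7 ± 5.75 CPM in controls (SD, n = 5) and 0.615 ± 0.348 CPM in *Supt6*-KO mice (SD, n = 4; log2 fold change -5.14, SE 0.37, adjusted p = 8.5e-07). *Col4a4* (-3.00), *Col4a2* (-2.43) and *Col4a3* (-2.03) followed on the log2 fold change scale. With the transcript length correction 5 of the 6 chains were called lower, beside 20.3% of all genes fitted.

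Of 8 laminin chains outside the members, 6 were called lower and 1 higher, beside 24.9% and 20.9% of all genes tested. With the transcript length correction 4 were called lower and with the implied lengths 3, beside 20.3% and 20.2% of all genes fitted. *Lamc1*, the γ1 chain of most other basement membrane laminins, fell to 17.3% of control (log2 fold change -2.52, adjusted p = 1.4e-05). *Lamb2* (-2.46), *Lama5* (-2.20), an epidermal and vascular α chain, and *Lamb1*, at 25% of control, also fell. *Lamc3*, a γ chain of low abundance, was called higher, at 7.01 ± 3 CPM in controls (SD, n = 5) and 21.1 ± 12.9 CPM in *Supt6*-KO mice (SD, n = 4; log2 fold change 1.59, SE 0.48, adjusted p = 0.012), with *Supt6*-KO mouse 4 at 4.131 CPM inside the control range, and it was at 0.79 (adjusted p = 0.14) with library totals. *Lama2*, the only chain of these 8 not called, was at -0.59 (adjusted p = 0.08) and turned to 0.52 after correction for transcript length.

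Of 15 nidogens, proteoglycans and other basement membrane proteins, 11 were called lower and 0 higher, beside 24.9% and 20.9% of all genes tested. *Col15a1*, a collagen of vessel and muscle basement membranes, fell to 13.8% of control (log2 fold change -2.86, adjusted p = 6e-06). *Hspg2*, which encodes perlecan, fell to 21.4% (log2 fold change -2.23, adjusted p = 0.00016), *Egfl6* to 22.5% (-2.15, adjusted p = 2.3e-06) and *Npnt*, which encodes the integrin ligand nephronectin, to 24% (-2.06, adjusted p = 1.9e-06). After correction for transcript length *Hspg2* was at -0.84 (adjusted p = 0.0048), short of 2-fold. The 4 not called were *Col18a1* (-0.95, adjusted p = 0.015), *Fbln2* (0.02, adjusted p = 0.96), *Tinagl1* (0.89, adjusted p = 0.058) and *Fbln1*, which passed the adjusted p in the higher direction (0.62, adjusted p = 0.028). *Fbln1* was at 1.14 with the genomic length correction, at -0.05 with library totals and at 0.37 (adjusted p = 0.1) without *Supt6*-KO mouse 4. *Tinagl1* was called higher without *Supt6*-KO mouse 2 or 3 and was at 0.20 (adjusted p = 0.43) without mouse 4. The Fraser complex links epidermis to dermis in development, and 3 of its 4 listed genes were called lower. *Fras1* fell to 7.49% of control (log2 fold change -3.75, adjusted p = 2.4e-05), *Frem2* to 10.4% (-3.27, adjusted p = 1.3e-05) and *Frem1* to 27.6% (-1.84, adjusted p = 0.00094), the last at -0.75 (adjusted p = 0.048) after correction for transcript length. *Grip1*, an adaptor that carries this complex to the cell surface, was called higher (log2 fold change 1.01, adjusted p = 7.3e-05), at 0.32 with library totals and short of 2-fold without control 2 or 3 or *Supt6*-KO mouse 2 or 4.

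Of 8 enzymes and chaperones that process basement membrane proteins, 6 were called lower and 0 higher, beside 24.9% and 20.9% of all genes tested. The largest changes were those of *Tll1*, a tolloid protease (log2 fold change -2.52, adjusted p = 6.1e-06), and *Loxl2*, which cross-links type IV collagen (-2.09, adjusted p = 5.9e-05). *Plod2* (-1.80) and *Plod3* (-1.60), which hydroxylate collagen lysines, were lower as well.

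Adhesion genes outside the hemidesmosome were measured in the same way. *Itgb1*, the most abundant of 14 other integrin genes, was at 257 ± 31.1 CPM in controls (SD, n = 5) and 186 ± 49.8 CPM in *Supt6*-KO mice (SD, n = 4; log2 fold change -0.47, SE 0.18, adjusted p = 0.033), with mouse 4 inside the control range. It no longer passed the adjusted p when control 1, 4 or 5 or *Supt6*-KO mouse 1, 2 or 3 was left out (largest adjusted p = 0.088, log2 fold change -0.38, without *Supt6*-KO mouse 2), and it was at 0.03 (adjusted p = 0.85) with the implied length correction. Among the 14, 7 were called lower and 1 higher, beside 24.9% and 20.9% of all genes tested. *Itga11* (log2 fold change -2.17), *Itga9* (-1.89), *Itgb5* (-1.63) and *Itga4* (-1.55) fell furthest. With the transcript length correction 3 of the 14 were called lower, near the 20.3% of all genes fitted, and *Itga4* was at -0.48 (adjusted p = 0.039). *Itgb8* was higher (1.05, adjusted p = 0.0018; 0.33 with library totals) and was not called without control 2 or *Supt6*-KO mouse 3. Of 10 focal adhesion adaptors, 7 were called lower and 0 higher, led by *Tln1*, which encodes talin (log2 fold change -2.58, adjusted p = 1.1e-05), *Pxn* (-1.92), *Fermt2* (-1.44) and *Zyx* (-1.40). The count was 4 with DESeq2, with the transcript length correction and in each fit without control 5 or *Supt6*-KO mouse 2 or 3. *Lims1*, an adaptor of the integrin-linked kinase complex, was higher in every *Supt6*-KO mouse than in every control (0.58, adjusted p = 0.00033), at 1.02 with the transcript length correction and at -0.11 with library totals.

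Of the 5 other plakins, relatives of *Plec* and *Dst*, 3 were called lower and 0 higher, beside 24.9% and 20.9% of all genes tested. *Eppk1*, epiplakin, fell to 17.2% of control (log2 fold change -2.54, adjusted p = 1.9e-05), *Evpl*, envoplakin, to 29.8% (-1.74, adjusted p = 7.4e-06) and *Dsp*, the desmosomal plakin desmoplakin, to 38.6% (-1.37, adjusted p = 5.9e-05). After correction for transcript length, 1 of the 5 plakins was called lower, near the 20.3% of all genes fitted.

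Markers of cells that do not build hemidesmosomes were lower in part, where 24.9% of all genes tested were called lower. Of 7 skeletal muscle markers, 6 were called lower, and their summed level was 3565 to 4713 CPM in controls and 741.3 to 1215 CPM in *Supt6*-KO mice. *Acta1*, the most abundant, fell to 15.9% of control, and *Myh4* (log2 fold change -4.38), *Actn3* (-4.33) and *Myh1* (-3.66) fell further. Of 5 Schwann cell markers, 3 were called lower, with summed levels of 178.8 to 217.3 CPM and 54.55 to 62.88 CPM. *Prx* (log2 fold change -2.65), *Sox10* (17.4% of control) and the most abundant of them, *Mbp* (-1.91), were those called.

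Of 6 endothelial markers, 4 were called lower, *Cdh5* (log2 fold change -2.11), *Flt1* (-1.45), *Kdr* (-1.19) and the most abundant, *Pecam1* (-1.08). The count was 2 without control 5 and 1 with the transcript length correction. Their summed level was 51.74 to 112.6 CPM in controls and 33.09 to 43.31 CPM in *Supt6*-KO mice. Of 7 fibroblast markers, 2 were called lower, *Col1a1* (log2 fold change -3.64) and *Col1a2* (-2.37), while the most abundant, *Col3a1*, was at -0.31 (adjusted p = 0.43) and summed levels overlapped at 3105 to 10760 CPM and 2081 to 3954 CPM. No marker of these 4 lists was at 0 in either group. Part of the basement membrane genes above are made by these cells as well, and the part of such cells in the decrease was not tested.

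Hair follicle and immune markers differed between the groups as well. All 6 hair follicle markers were called lower, with summed levels that ranged from 8.402 to 1122 CPM among the controls and from 2.012 to 3.808 CPM among the *Supt6*-KO mice, and *Krt71*, the most abundant, was at 0.6874 to 656.9 CPM and 0.2744 to 0.6466 CPM. *Shh* was at 0 in all 4 *Supt6*-KO mice and in control 5, with 7 to 44 counts in the other controls. The controls thus differed widely in hair follicle genes, and the part of the hair cycle in the values of the members was not tested. Of 8 immune markers, 5 were called higher and 1, *Cd3e*, lower (log2 fold change -4.13), beside 20.9% and 24.9% of all genes tested. *S100a8* (7.87) and *S100a9* (7.78), which keratinocytes also make, led on the log2 fold change scale. The neutrophil marker *Ly6g* was also called higher (adjusted p = 0.0076) but stayed at or under 0.6861 CPM in every mouse, and *Itgam* (1.06) and *Cd68* (1.04) were near the 2-fold limit. The count was 3 with library totals and without control 2 or control 3, and 2 with the Y-linked covariate.

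The members are long genes, and long transcripts were lower in *Supt6*-KO skin in general. The share of genes called lower was 12.9% for longest transcripts under 2000 bases, 33.7% from 4000 to 6000 bases, the class of *Col17a1*, *Itga6*, *Itga3* and *Lamb3*, and 46.4% from 6000 to 10000 bases, that of *Itgb4* and *Col7a1*. It was 53.9% from 10000 bases upward, the class of *Dst*, *Plec* and *Lama3*. After correction for the length of the longest transcript in each mouse, 6 of the 9 members and 20.3% of the 16318 genes fitted were called lower, the members being *Itgb4* (log2 fold change -1.92), *Col17a1* (-1.75), *Plec* (-1.64), *Lamb3* (-1.62), *Itga3* (-1.08) and *Col7a1* (-1.06), and *Dst* was at -0.98 (adjusted p = 0.00017). With the implied lengths, 5 members and 20.2% of 14268 genes were called lower. The members were *Itgb4* (-1.86), *Lamb3* (-1.70), *Col17a1* (-1.68), *Plec* (-1.5) and *Dst* (-1.39). Over all genes tested the median log2 fold change was -0.072 with TMM factors and -0.759 with library totals.

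To see which other genes followed the members from mouse to mouse, log2 CPM centred on its mean over the 9 mice was compared with that of 9538 genes of at least 10 CPM by the root mean square (RMS) difference. The nearest genes were *Adcy6*, *Cry2* and *Susd2* to *Col17a1* (RMS 0.095 to 0.153), *Pdzd2* and *Utrn* to *Dst* (0.067 and 0.169), *Pitpnm2*, *Crebbp* and *Zfp609* to *Plec* (0.143 to 0.168) and *Wiz*, *Kdm6b* and *Lrp5* to *Itgb4* (0.107 to 0.155). They were *Pkp4*, *Rbbp5* and *Pip4k2c* to *Itga6* (0.065 to 0.079), *Usp19*, *Foxj2* and *Micall1* to *Lama3* (0.077 to 0.08), *Samd4b*, *Bicral* and *Abl1* to *Lamb3* (0.108 to 0.118), *Tcof1*, *Plekhg3* and *Raver1* to *Itga3* (0.178 to 0.196) and *Ccdc88c*, *Abca2* and *Nin* to *Col7a1* (0.187 to 0.213). Members lay among the 50 nearest genes of another member in the following cases. *Dst* was the gene of rank 12 from *Col17a1*, and *Col17a1* of rank 6 from *Dst* (RMS 0.188), and *Plec* was of rank 13 from *Itgb4*, and *Itgb4* of rank 6 from *Plec* (RMS 0.197). From *Col7a1*, *Dst* was of rank 21 (RMS 0.284) and *Col17a1* of rank 34 (RMS 0.308). The profiles share the group difference and the library of each mouse, and the likeness is a description.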

How the data were processed

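Per the labels and the methods of the study, mRNA libraries of whole skin were sequenced in read pairs, aligned to mm10 with Bowtie2 2.3.4.3 and quantified with RSEM 1.3.1, and the submitters' processing notes also name HISAT and DESeq2 1.4.5. The authors deposited estimated counts per gene, of which 8.39 to 9.55% of the values in a mouse were not whole, and these were rounded. TPM, which the authors also deposited, were used for 6 mice (5 controls and *Supt6*-KO mouse 4) and served only for levels and implied lengths. Of 17943 IDs, 17917 matched RefSeq and 26 did not.

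Genes with at least 10 counts over the 9 mice (16426) were fitted with edgeR 4.0.16 (glmQLFit and glmQLFTest, TMM factors) in R 4.3.3, with Benjamini-Hochberg adjustment over all of them. The fit was tested on simulated data in which 200 of 16169 genes changed, and it recovered 93.5% of these with 5 false calls. Far more genes were called in the real data, so the simulation does not test the fit under such a shift. Alternatives were DESeq2 1.42.0, library totals, other filters and length corrections, a Y-linked covariate, a replicate block, a test against a 2-fold change and leaving out mice. Ratios used counts plus 0.5.

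The members and lists were chosen with earlier results of these data known. Besides *Supt6*, the members, *Krt5*, *Krt14*, *Cd151* and *Itgb1*, up to 4 genes called in each direction were named per list (largest change, at least 1 CPM in the higher group), with the most abundant gene of each cell type list and the 3 nearest genes of each member. *Erbin*, *Lama2*, *Lims1*, *Shh*, *Ly6g* and the genes named as not called were chosen after their values were seen. A few genes, and the 2 ratios that need one of them, are not reported here; the p-values of the ratios remained adjusted over all 8.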

Additional observations from a re-analysis of the deposited data

Results flagged for a closer look

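Among 44 groups of values examined, 2 held a mouse far from the others of its group, where chance gives about 2.2, and both were *Supt6*-KO mouse 4. Its *Itga3* level was 46.4 CPM against a group median of 13.2 CPM. Its log2 ratio of *Itga3* to *Itga6* was -2.39 against a median of -3.51.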

How the results depend on the processing

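The 8 members called lower were 8 with DESeq2, under every filter on low counts, with the replicate block (3134 genes higher and 3834 lower in all), with the Y-linked covariate and without any single mouse. In these fits 22.9 to 25.7% of all genes tested were called lower. The members called lower were 9 with library totals, where 41.4% of all genes were. They were 6, 7 and 5 with the transcript, genomic and implied length corrections, beside 20.3%, 21.4% and 20.2% of all genes. In the test against a 2-fold change they were 7. Library totals gave 1470 genes higher and 6802 lower against 3427 and 4088, and the 2-fold test 2271 higher and 2770 lower.

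*Itga6* was at -0.30 (transcript), -0.06 (genomic) and 0.07 (implied length) and *Lama3* at -0.21 (transcript). In the 2-fold test *Itga6* (-0.72, adjusted p = 1.0) and *Itga3* (-1.62, adjusted p = 0.077) did not pass. *Cd151* turned to -0.50 with library totals and to -0.17, -0.26 and -0.13 with the 3 length corrections, and *Itgb1* to 0.03 with implied lengths. The cause of these changes was not tested.

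Without 1 mouse the log2 ratio differences ranged from 1.84 to 2.03 (*Itga6*/*Itgb4*), 0.80 to 1.01 (*Lama3*/*Lamb3*), -1.40 to -1.01 (*Itga3*/*Itga6*), 0.02 to 0.65 (*Col17a1*/*Itgb4*), 0.18 to 0.75 (*Dst*/*Plec*) and -0.16 to 0.46 (*Col7a1*/*Lamb3*). The smallest exact permutation p was then 0.0286 (1 control left out) or 0.0357 (1 *Supt6*-KO mouse left out), so that the adjusted p could pass only where enough ratios reached it.

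Mice with the same number correlated at -0.018, 0.161, 0.145 and 0.034 in their deviations. The mean was 0.08, beside -0.015 for mice with different numbers. With 4 such pairs, whether the numbers pair the mice cannot be told. Depth limited no member, since the smallest count was 220 (*Itga3*). Gene counts do not separate isoforms, TPM of 3 *Supt6*-KO mice were not used here, and permutation tests of 5 against 4 mice cannot go below 0.0159. Length corrections take length effects from all genes, including those that changed.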
